A study of Mus musculus with 9 samples.

Results

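The 10 genes described here mark the endothelial cells that line brain capillaries and the barrier those cells form. They are Cldn5, Esam and Pecam1 (cell junctions and adhesion), Kdr and Flt1 (receptors for vascular endothelial growth factor, VEGF), Tek and Tie1 (receptors of the angiopoietin pathway), and Slc2a1, Mfsd2a and Abcb1a (transporters). Members were matched to the table by gene symbol, with no measured value in the rule, and all 10 have a locus among the 27095 loci of the deposited table. Of these, 9 had a mean FPKM (fragments scaled to transcript length and to library size) of at least 1 over the groups, as did 15455 loci in all, and counts were made over those loci. Abcb1a fell short of that level and is given by its values only.

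RNA-seq was carried out on fetal brain of wild-type C57BL/6 mice (C57BL/6J in the study's methods) on gestational day 17 (GD17), which the study's methods describe as dissected cortex. Dams had received an intraperitoneal injection on gestational day 7. The control dams received lactated Ringer's solution and the EtOH dams received 2.9 g/kg EtOH, and exposed fetuses were sorted by the presence of ocular and craniofacial defects into EtOH-exposed affected and EtOH-exposed unaffected offspring. Each group had 3 libraries, 9 in all. The deposited table gives 1 value per group and locus, which is the authors' value over 3 libraries, so no spread between animals, interval or test could be computed here, and every difference below is a difference between 2 group values. The 3 comparisons use each group in 2 of them and are therefore not independent of one another. The comparisons ask how brain endothelial genes stand in exposed offspring with and without defects.

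Capillaries grow into the cortex from the surrounding plexus under the influence of VEGF, which is made by neural cells and binds Kdr, the main signalling receptor, and Flt1, which binds it tightly but signals weakly. Tek binds the angiopoietins and, with its partner Tie1, governs the stability of the vessel wall. Wnt ligands of neural progenitors then induce barrier properties in these cells, among them Cldn5 tight junctions, glucose uptake through Slc2a1, lipid transport by Mfsd2a and, later, drug export by Abcb1a.

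The 4 receptor genes were the members that stood highest in affected offspring relative to both other groups, and the sequences just before their RefSeq start sites are shown together with that of Cldn5, which lay on the other side. RefSeq promoter entries matched 8 of the 10 members. Each sequence is the 250 bases upstream of the start site in GRCm38.p6, read 5′ to 3′ on the strand of the gene. Capitals mark GGAA on either strand (TTCC where the match lies on the other strand), the core letters recognised by ETS factors, a family with several endothelial members. The windows are chr5:75978456-75978705 for Kdr (minus strand), chr5:147726012-147726261 for Flt1 (minus strand), chr4:94739039-94739288 for Tek (plus strand), chr4:118489850-118490099 for Tie1 (minus strand) and chr16:18776597-18776846 for Cldn5 (plus strand).
Kdr: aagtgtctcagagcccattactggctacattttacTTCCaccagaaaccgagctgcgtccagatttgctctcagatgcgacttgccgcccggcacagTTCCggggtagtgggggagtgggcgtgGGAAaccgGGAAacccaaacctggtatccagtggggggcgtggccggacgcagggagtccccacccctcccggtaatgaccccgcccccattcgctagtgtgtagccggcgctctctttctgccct
Flt1: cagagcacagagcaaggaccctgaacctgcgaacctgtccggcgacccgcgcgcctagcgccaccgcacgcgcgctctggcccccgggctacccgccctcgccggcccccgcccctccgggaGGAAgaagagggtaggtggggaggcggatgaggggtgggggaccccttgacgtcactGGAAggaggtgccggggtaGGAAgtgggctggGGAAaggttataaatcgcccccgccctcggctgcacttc
Tek: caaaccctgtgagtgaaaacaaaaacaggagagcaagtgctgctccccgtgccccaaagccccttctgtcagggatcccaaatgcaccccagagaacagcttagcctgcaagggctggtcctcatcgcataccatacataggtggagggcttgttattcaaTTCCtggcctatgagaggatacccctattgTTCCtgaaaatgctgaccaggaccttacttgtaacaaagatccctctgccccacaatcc
Tie1: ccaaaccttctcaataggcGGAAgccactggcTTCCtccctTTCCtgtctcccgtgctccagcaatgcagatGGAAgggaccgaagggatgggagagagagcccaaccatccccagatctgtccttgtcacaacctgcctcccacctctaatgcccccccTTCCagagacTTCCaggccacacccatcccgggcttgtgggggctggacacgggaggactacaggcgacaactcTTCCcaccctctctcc
Cldn5: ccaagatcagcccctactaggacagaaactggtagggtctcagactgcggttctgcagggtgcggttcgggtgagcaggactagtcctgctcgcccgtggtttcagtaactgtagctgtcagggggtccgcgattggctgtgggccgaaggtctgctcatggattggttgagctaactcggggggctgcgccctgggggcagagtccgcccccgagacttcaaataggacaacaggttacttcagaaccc
GGAA is a short and common string, held by 93.4% of 32851 promoter windows of this length, with a median of 3 matches. Kdr and Flt1 had 4 matches each, and 33.4% of windows had at least as many. Tie1 had 7 matches, which 3.82% of windows reached. Tek had 2 matches, as did Mfsd2a, and 76.8% of windows had at least as many. Abcb1a had 5 matches, which 18.0% of windows reached, before a RefSeq start that lies 93001 bases outside its locus in the table. Cldn5 and Slc2a1 had 0 matches, like 6.55% of all windows. These matches describe the letters in the windows and were not tested for binding of any factor.

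Endothelial RNA was measurable in all 3 groups, and the order of the members hardly differed between them. Cldn5 was the most abundant member in each group and stood at the 83.4th percentile of the counted loci in control. Slc2a1 and Mfsd2a followed. Esam ranked above Pecam1 in control and unaffected offspring and below it in affected offspring, which was the only change of order. Kdr, Flt1, Tie1, Tek and Abcb1a followed in that order in each group. FPKM is a level per length and allows genes to be compared, but without values per animal it could not be said which neighbours in this order differ beyond their spread. In bulk tissue, fewer endothelial cells and less RNA per endothelial cell cannot be told apart.

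**Figure D1:**
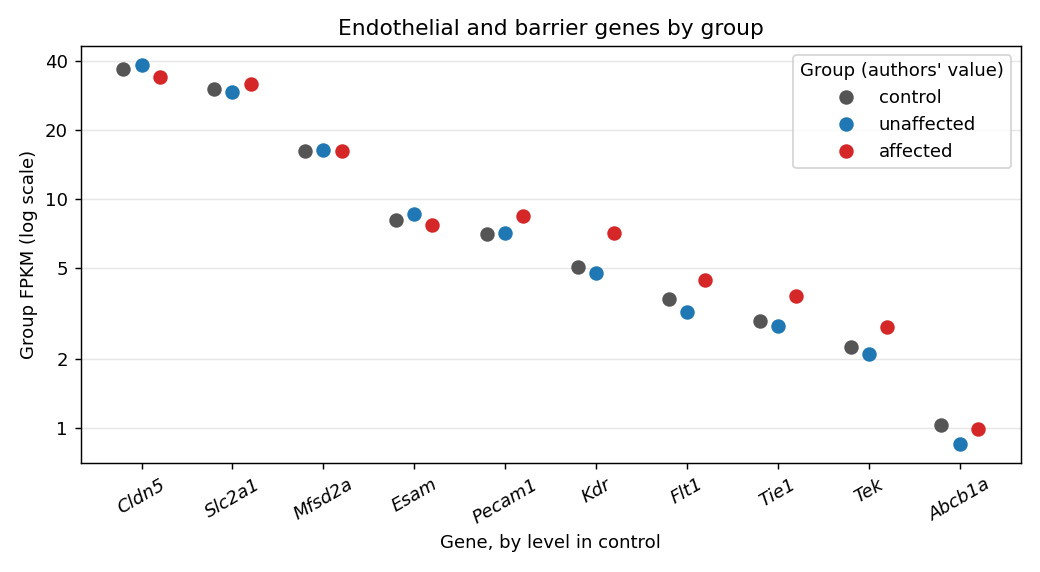
FPKM of each of the 10 genes (log axis) in the control, unaffected and affected groups, 1 authors' value per group without error. Kdr, Flt1, Tie1 and Tek have their highest point in affected offspring, whereas the points of Mfsd2a nearly coincide.

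Differences between unaffected and control offspring were small. Of the 9 counted members, 0 were at least 25% higher and 0 at least 20% lower, the fold limits used throughout, beside 5.53% of all counted loci past the limit on the higher side and 6.99% on the lower side. The log2 fold changes of the members ran from -0.19 (Flt1) to 0.09 (Esam), with a median of -0.03 beside 0.01 over all counted loci. In affected offspring against control, 2 of 9 members were past the limit on the higher side (Kdr and Tie1) and 0 on the lower side, beside 12.6% and 11.5% of all loci. In affected against unaffected offspring, 4 of 9 were past it on the higher side (Kdr, Flt1, Tie1 and Tek) and 0 on the lower side, beside 20.7% and 18.5% of all loci. Over the 9 members the median log2 difference was 0.26 against control and 0.25 against unaffected offspring, where the medians of all loci were 0.02 and 0.01. Over all 10 members, with Abcb1a, the medians were 0.17 and 0.23.

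These differences went with transcript length, in the members as in the whole table. Length was taken as the longest coding transcript in the GENCODE M21 annotation, found for 12474 counted loci. Across these loci, Spearman's coefficient between length and log2 fold change was -0.53 for unaffected against control, 0.55 for affected against control and 0.64 for affected against unaffected offspring. Across the 9 counted members the same coefficients were -0.92, 0.92 and 0.97. Genes are not independent replicates, and the members share the same libraries. Level went with length as well, since Spearman's coefficient between control FPKM and length was -0.80 across the 9 members. In the fifth of loci with the longest transcripts (5213 nt and more), which holds Kdr and Flt1, 24.5% of loci were past the higher limit in affected against control and 48.2% in affected against unaffected offspring. In the class from 3723.8 to 5213 nt, which holds Tek and Tie1, the shares were 9.54% and 21.9%. In the class with the shortest transcripts, which holds Cldn5, they were 2.53% and 1.68%, and 29.1% and 51.6% of its loci were past the lower limit.

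For this reason the members are given with the log2 fold change and with the same value minus the running median of loci of like length. After this subtraction, 1 of 9 members (Kdr) was past the higher limit in affected against control, beside 3.94% of loci, and 2 of 9 (Kdr and Tie1) in affected against unaffected offspring, beside 8.61% of loci. Of the 9 counted members, 9 lay above the running median in affected against control and 9 in affected against unaffected offspring, beside 49.9% of all loci in each, whereas 3 did in unaffected against control. These values depend on which transcript stands for a gene. With the median length over all transcripts of a gene, again 1 of 9 members (Kdr) was past the higher limit against control, beside 7.46% of loci, and 2 of 9 against unaffected offspring, beside 15.2% of loci. The second gene was then Flt1 and not Tie1. Above that running median lay 8 of 9 members in each comparison with affected offspring, and 4 in unaffected against control. Unless the median length is named, subtraction below refers to the longest coding transcript. On the lower side, 795 of 12474 loci were past the limit after it in affected against control, and 1226 in affected against unaffected offspring. The part of transcript length in the members' differences was not tested.

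**Figure D2:**
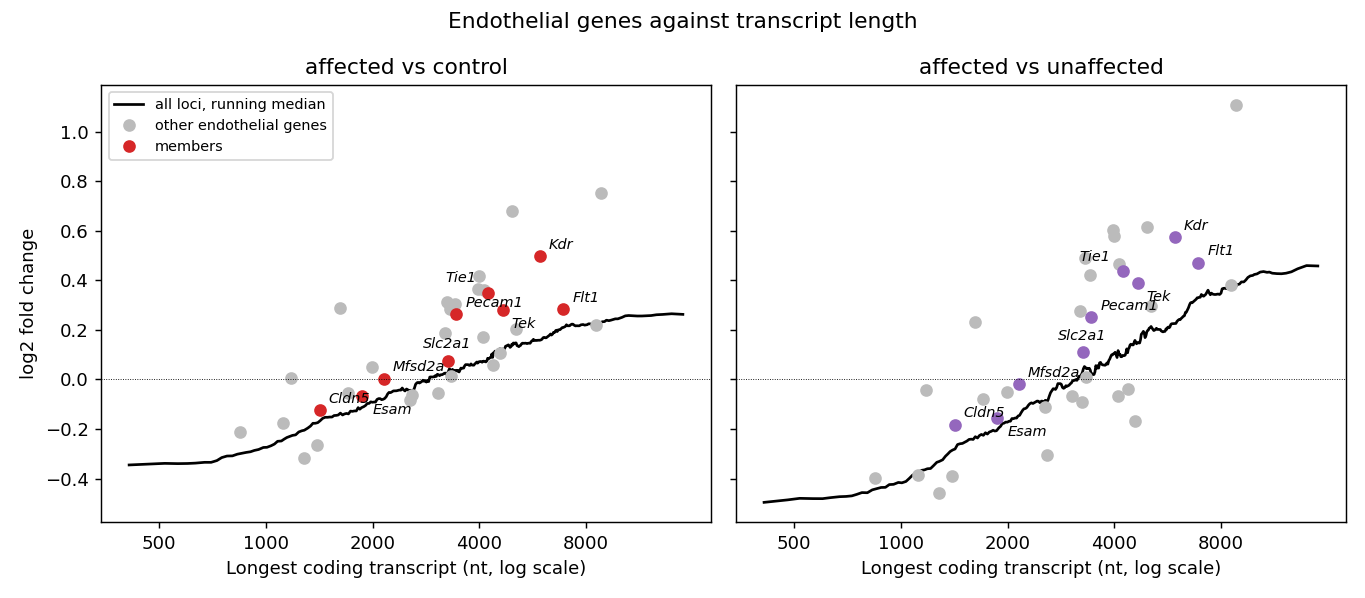
Log2 fold change against the longest coding transcript (nt, log axis) in affected against control (left) and affected against unaffected offspring (right). The black line is the running median of all counted loci, coloured points are the 9 counted members and grey points other endothelial genes. Kdr and Tie1 lie above the line, whereas Flt1, the longest member, lies close to it against control.

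**Figure D3:**
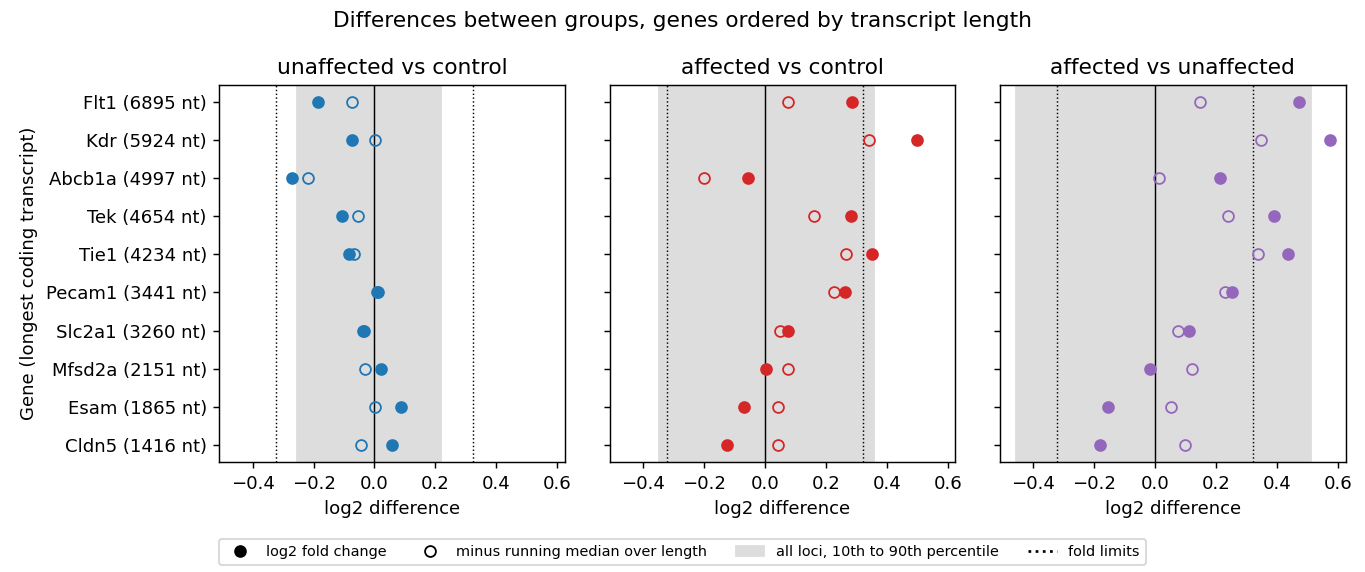
Log2 fold change of the 10 genes (filled) and the same value minus the running median over transcript length (open) in 3 comparisons, ordered by transcript length. Grey bands span the 10th to 90th percentile of all counted loci and dotted lines are the fold limits. The filled points of the 4 receptor genes lie right of 0 in both comparisons with affected offspring, and the open points lie nearer to 0.

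Among the junction and adhesion genes, those with short transcripts were level or slightly lower in affected offspring. Cldn5 (chr16:18776847-18778262, mm10) encodes claudin-5, the claudin that seals the tight junctions of brain endothelium. Its level was 36.9 FPKM in control, 38.4 FPKM in unaffected and 33.9 FPKM in affected offspring. The log2 fold change in affected offspring was -0.12 against control and -0.18 against unaffected offspring, and turned to 0.04 and 0.10 when the running median for its length (1416 nt) was subtracted, but stayed at -0.09 and -0.10 with median transcript lengths. In unaffected against control it was 0.06, or -0.04 after subtraction and 0.02 with median lengths. Affected offspring thus had the lowest Cldn5 level of the 3 groups, by a margin below the fold limit.

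Esam (chr9:37528089-37538319) encodes an immunoglobulin-like adhesion molecule at endothelial tight junctions. It stood at 8.04 FPKM in control, 8.54 FPKM in unaffected and 7.68 FPKM in affected offspring. In log2 terms this was -0.07 in affected against control and -0.15 in affected against unaffected offspring, and 0.04 and 0.05 after subtraction of the running median for its length (1865 nt). Esam kept nearly the same proportion to Cldn5, with a Cldn5 to Esam FPKM ratio of 4.59 (control), 4.50 (unaffected) and 4.41 (affected).

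Pecam1 encodes CD31, an adhesion molecule of endothelium that is also found on platelets and leukocytes. Its level was 6.99 FPKM in control, 7.05 FPKM in unaffected and 8.39 FPKM in affected offspring, the last being the highest. On the log2 scale the difference was 0.26 in affected against control and 0.25 in affected against unaffected offspring, and it was 0.23 in both after subtraction for its length (3441 nt), or 0.15 and 0.10 with median lengths. In unaffected against control it was 0.01, or -0.02 when centred on Gapdh and Ywhaz. The locus in the table (chr11:106654218-106740136) runs 24855 bases past the end of the RefSeq gene, so its value may hold reads from outside Pecam1. The Cldn5 to Pecam1 ratio was 5.28 (control), 5.45 (unaffected) and 4.03 (affected).

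Among the VEGF receptors, Kdr showed the largest difference of all members. Kdr (chr5:75933270-75978428) encodes VEGFR2. It was measured at 5.02 FPKM in control, 4.76 FPKM in unaffected and 7.09 FPKM in affected offspring. Affected offspring were 1.41 times the control level and 1.49 times the unaffected level, whereas control and unaffected offspring lay close together. The log2 fold changes were 0.50 and 0.57, at the 95.3rd and 92.4th percentiles of all counted loci. With the running median for its length (5924 nt) subtracted they were 0.34 and 0.35, at the 96.7th and 93.0th percentiles of the loci with a length. In unaffected against control the value was -0.07, or 0.00 after subtraction. The ratio of Cldn5 to Kdr was 7.36 (control), 8.07 (unaffected) and 4.78 (affected).

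Flt1 (chr5:147562196-147725988) encodes VEGFR1, whose soluble form traps VEGF. Its level was 3.64 FPKM in control, 3.20 FPKM in unaffected and 4.44 FPKM in affected offspring, so unaffected offspring were lowest and affected offspring highest. The affected level was 1.22 times control and 1.39 times unaffected, and the log2 fold change between unaffected and control was -0.19. The log2 fold changes of 0.28 and 0.47 became 0.08 and 0.15 when set against loci of its longest transcript (6895 nt), but stayed at 0.27 and 0.46 with its median transcript length, which is 2039.5 nt. Kdr exceeded Flt1 by a factor of 1.38 (control), 1.49 (unaffected) and 1.60 (affected). The table has a single value for Flt1, so the membrane-bound and soluble forms were not separated.

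The Tie receptors differed in the same direction as the VEGF receptors and by less than Kdr. Tie1 (chr4:118471191-118489849), the partner receptor without a firmly established ligand of its own, stood at 2.94 FPKM in control, 2.77 FPKM in unaffected and 3.75 FPKM in affected offspring. Affected offspring were 1.28 times control and 1.35 times unaffected offspring. The log2 fold changes of 0.35 and 0.44 became 0.27 and 0.34 after subtraction for its length (4234 nt), or 0.20 and 0.21 with median lengths.

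Tek (chr4:94739273-94874950), which encodes the angiopoietin receptor Tie2, stood at 2.26 FPKM in control, 2.10 FPKM in unaffected and 2.74 FPKM in affected offspring. The affected level was 1.22 times control and 1.31 times unaffected, with log2 fold changes of 0.28 and 0.39, or 0.16 and 0.24 after subtraction for its length (4654 nt) and 0.11 and 0.15 with median lengths. Tie1 exceeded Tek by a factor of 1.30 (control), 1.32 (unaffected) and 1.37 (affected). Both Tie receptors were slightly lower in unaffected offspring than in control, with log2 fold changes of -0.09 (Tie1) and -0.11 (Tek).

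Among the transporters, Slc2a1 and Mfsd2a were nearly level. Slc2a1 (chr4:119108745-119137329) encodes GLUT1, the glucose transporter of the barrier, and stood at 30.02 FPKM in control, 29.3 FPKM in unaffected and 31.6 FPKM in affected offspring. The log2 difference came to 0.07 in affected against control, or -0.03 when centred on Gapdh and Ywhaz, and 0.11 in affected against unaffected offspring. Subtraction for its length (3260 nt) gave 0.05 and 0.08, and with median lengths 0.12 and 0.21. Erythroid cells and other brain cells also make GLUT1, so its level is not that of endothelium alone.

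Mfsd2a (chr4:122946850-122961188), the transporter of lysophospholipids carrying docosahexaenoic acid, had 16.1 FPKM in control, 16.4 FPKM in unaffected and 16.1 FPKM in affected offspring. The log2 difference came to 0.00 in affected against control, or -0.02 when centred on the median of all loci and -0.10 when centred on Gapdh and Ywhaz. In affected against unaffected offspring it was -0.02, or 0.12 after subtraction of the running median for its length (2151 nt). Slc2a1 exceeded Mfsd2a by a factor of 1.86 (control), 1.79 (unaffected) and 1.96 (affected).

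Abcb1a, which encodes the efflux pump P-glycoprotein of brain capillaries, was at the edge of the range used, with 1.03 FPKM in control, 0.852 FPKM in unaffected and 0.988 FPKM in affected offspring. Its log2 fold change was -0.27 in unaffected relative to control, -0.06 in affected relative to control and 0.21 in affected relative to unaffected offspring. Subtraction for its length (4997 nt) gave -0.22, -0.20 and 0.01, and with median lengths -0.29, -0.04 and 0.27. Its paralogue Abcb1b was listed at 0.112 FPKM, 0.118 FPKM and 0.0955 FPKM. The coding sequences of both genes are alike, and reads shared between them could have been assigned to either. The Abcb1a locus of the table (chr5:8660092-8748570) begins 93001 bases inside the RefSeq gene.

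Other endothelial genes gave a mixed picture as a list, and were set against length only together with the members. Of 26 counted genes, 5 were past the limit on the higher side and 0 on the lower side in affected against control, and 8 and 4 in affected against unaffected offspring, beside the 12.6% higher and 11.5% lower, and the 20.7% higher and 18.5% lower, of all loci. The median log2 fold change was 0.14 and -0.04. Cdh5, the cadherin of endothelial adherens junctions, stood at 7.36 FPKM in control, 6.59 FPKM in unaffected and 9.83 FPKM in affected offspring. On the log2 scale, affected offspring lay 0.42 above control and 0.58 above unaffected offspring, close to the values of Kdr, and 0.35 and 0.47 after subtraction for length. The clotting protein gene Vwf stood at 0.926 FPKM, 0.723 FPKM and 1.56 FPKM in control, unaffected and affected offspring, and reached a mean of 1 only through the affected group, so it is counted only through the group where it is high. Without that group its mean was 0.824 FPKM. Robo4, an endothelial guidance receptor, stood at 1.04 FPKM, 1.09 FPKM and 1.66 FPKM. Mmrn2, a matrix protein of vessels, stood at 1.23 FPKM, 1.04 FPKM and 1.59 FPKM. Relative to loci of like length, Robo4 was at 0.53 and 0.42, and Mmrn2 at 0.30 and 0.50. The transcription factor gene Erg was the gene past the higher limit in unaffected against control (log2 fold change 0.40), where Vwf (-0.36, or -0.22 after subtraction for length) was the one past the lower limit.

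The 4 genes of this list past the lower limit in affected against unaffected offspring were Egfl7 (log2 fold change -0.39), Icam2 (-0.46), Ecscr (-0.39) and Ly6c1 (-0.40). All have transcripts of 1391 nt or less, and after subtraction for length they were at -0.10, -0.13, -0.013 and 0.042, inside the limit. The gene then past the lower limit was Clec14a, at -0.32. The 9 members and 26 other genes were split at their median length of 3299 nt. Of the 17 shorter genes, 0 were past either limit in affected against control, and 0 were past the higher and 4 past the lower limit in affected against unaffected offspring. In the latter comparison, 51.6% of all loci below 1793 nt and 19.7% of those from 1793 to 2729 nt were past the lower limit. Of the 18 longer genes, 7 and 12 were past the higher limit and 0 past the lower limit in these comparisons, with medians of 0.28 and 0.43. Over all loci, the higher shares were 4.53% and 8.90% from 2729 to 3723.8 nt, and 9.54% and 21.9% from there to 5213 nt. They were 24.5% and 48.2% for loci of 5213 nt and more. Across the 35 genes, members included, Spearman's coefficient between length and log2 fold change was 0.75 and 0.74, and -0.54 in unaffected against control. Within these genes the direction of the difference thus went with length. After subtraction for length, 4 of the 26 other genes (Cdh5, Robo4, Sox18 and Vwf) were past the higher limit against control, beside 3.94% of loci. Against unaffected offspring these genes and Eng, Sox7, Mmrn2 and Nos3 were past it, beside 8.61% of loci. Vwf is counted only through the affected group.

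Of 16 counted junction genes beyond the members, 5 were past the higher limit in affected against control, beside 12.6% of all loci, and 5 in affected against unaffected offspring, beside 20.7%, with 0 and 1 past the lower limit. After subtraction for length the higher counts came to 1 (Cldn3, at 0.50 from 0.29) and 2 (Cldn3 at 0.62 and Ctnna1 at 0.35), beside 3.94% and 8.61% of loci. The 5 genes past the limit against control before were then inside it. Cldn12 was then past the lower limit against unaffected offspring, at -0.34. Centred on Gapdh and Ywhaz the higher counts came to 0 and 5, where 1051 of 15455 loci were higher against control. Tjp1, the scaffold ZO-1 that anchors claudins to actin, stood at 9.87 FPKM in control, 8.95 FPKM in unaffected and 13.1 FPKM in affected offspring. The adherens junction genes Mllt4 (afadin), Ctnna1 (alpha-catenin) and Cdh2 (N-cadherin) lay 0.38, 0.34 and 0.34 above control on the log2 scale and 0.53, 0.41 and 0.48 above unaffected offspring. Neural cells express these genes too. Relative to loci of like length, Tjp1 was at 0.19 and 0.21, Mllt4 at 0.16 and 0.19, Ctnna1 at 0.28 and 0.35, and Cdh2 at 0.20 and 0.29.

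Among 21 counted transport genes, 5 were past the higher and 1 past the lower limit in affected against control, and 9 and 1 in affected against unaffected offspring, beside the same shares of all loci. The counts after subtraction for length were 0 higher and 3 lower, and 4 higher and 3 lower. Over all 12474 loci with a length they were 491 higher and 795 lower, and 1074 higher and 1226 lower. Centring on Gapdh and Ywhaz gave 1 higher and 3 lower, and 8 higher and 3 lower. Over all 15455 loci that centring gave 1051 higher and 3081 lower against control. Slc7a1, a cationic amino acid transporter, had log2 fold changes of 0.37 and 0.58, Insr (the insulin receptor) 0.33 and 0.52, and Lrp1, a large endocytic receptor, 0.43 and 0.83. Set against loci of like length these became 0.16 and 0.24 (Slc7a1), 0.09 and 0.12 (Insr), and 0.17 and 0.38 (Lrp1). Lrp1 was also the transport gene past the lower limit in unaffected against control, with -0.40, or -0.21 and inside the limit after subtraction. Itm2a, a membrane protein enriched in brain endothelium, was the gene past the lower limit, with 49.5 FPKM in control, 52.7 FPKM in unaffected and 32.3 FPKM in affected offspring. Its log2 fold change was -0.62 and -0.71, and stayed at -0.49 in both comparisons after subtraction for its length (1744 nt). Abcg2 and Tfrc were inside the limit before subtraction and past the lower limit after it, at -0.43 and -0.52 (Abcg2), and -0.35 and -0.43 (Tfrc).

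The ligands did not stand higher where their receptors did. Vegfa, the main VEGF ligand, was listed at 12.6 FPKM in control, 12.6 FPKM in unaffected and 10.1 FPKM in affected offspring, a log2 difference of -0.31 from both, just inside the lower limit. After subtraction for length it was past that limit at -0.35 and -0.33, and is the lower gene of the VEGF list in the counts after subtraction. Angpt1, the activating ligand of Tek, stood at 4.36 FPKM, 4.34 FPKM and 3.97 FPKM. Angpt2, its context-dependent antagonist, stood at 1.35 FPKM, 1.33 FPKM and 1.19 FPKM. All 3 ligands were lowest in affected offspring, and whether the receptor and ligand differences differ from each other beyond the spread between animals was not tested.

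Co-receptors and downstream genes of VEGF were mixed. Of 12 counted genes in the VEGF and apelin list, 2 were past the higher limit in affected against control (Aplnr, the apelin receptor, at 0.41, and Nrp2, a neuropilin, at 0.37) and 5 in affected against unaffected offspring, with 0 past the lower limit in either, beside 12.6% and 20.7% of all loci on the higher side. The list's medians were 0.13 and 0.06. Subtraction for length gave 1 higher and 1 lower against control, and 3 higher and 1 lower against unaffected offspring. Over all loci it gave 3.94% and 8.61% higher, and 795 and 1226 of 12474 lower. Centring on Gapdh and Ywhaz gave 0 higher and 1 lower, and 5 higher and 1 lower, where 1051 of 15455 loci were higher and 3081 lower against control. The locus joining Nrp1, a VEGF co-receptor, with Mir1903 stood at 30.3 FPKM in control, 23.9 FPKM in unaffected and 36.9 FPKM in affected offspring, and was past the lower limit in unaffected against control at -0.34. Plcg1, which carries the signal from Kdr, had 0.54 in affected against unaffected offspring, and the phosphatase gene Ptprj had 0.43. Set against loci of like length these were 0.33 and 0.09, and Nrp2 was at 0.17 against control. In the angiopoietin list of 5 counted genes, Foxo1, a transcription factor restrained by Tek signalling, was the one past the higher limit, at 0.40 in affected against unaffected offspring, and 0.03 after subtraction for its length.

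**Figure D4:**
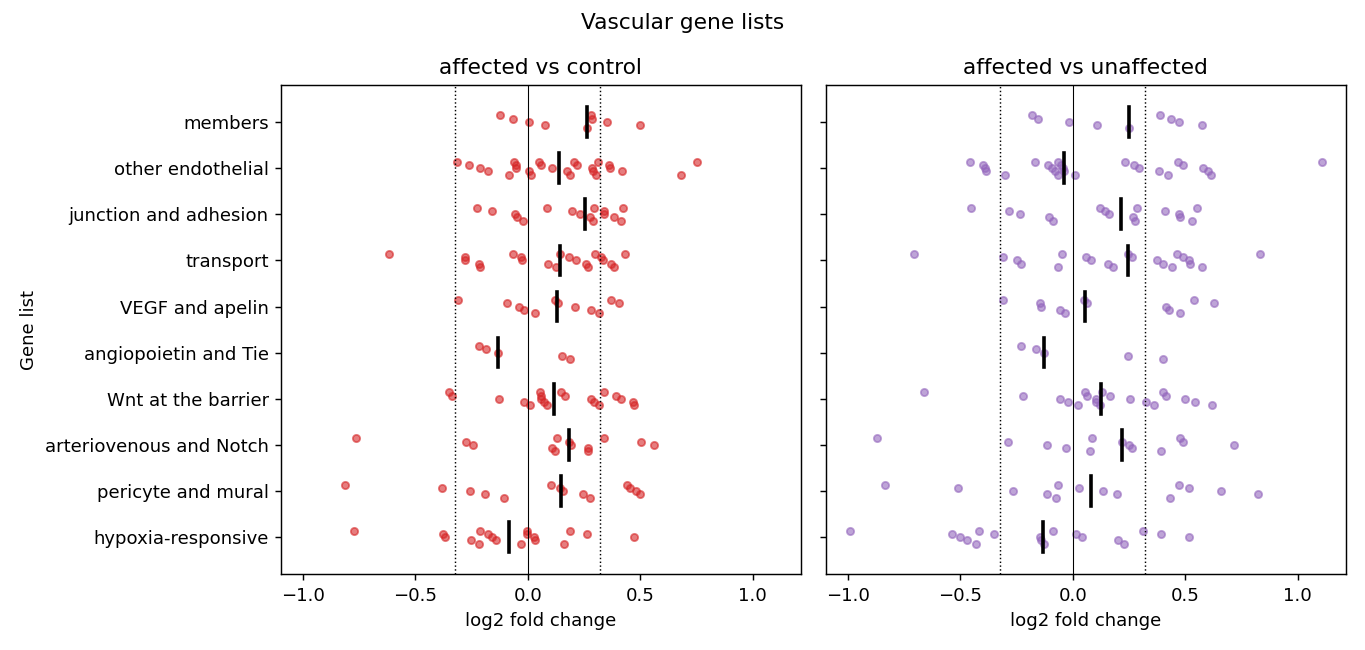
Log2 fold change of each counted gene in the members and 9 other vascular lists, in affected against control (left) and affected against unaffected offspring (right). Each point is a gene, the black bar is the list's median and dotted lines are the fold limits. The members have medians of 0.26 and 0.25, and each list spreads on both sides of 0.

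The Wnt signals that induce the barrier differed by ligand. Wnt7a was level, with 13.1 FPKM in control, 13.2 FPKM in unaffected and 13.7 FPKM in affected offspring. Wnt7b stood at 45.4 FPKM, 42.7 FPKM and 60.4 FPKM, which is 0.41 above control and 0.50 above unaffected offspring on the log2 scale, and 0.38 and 0.46 after subtraction for length. The co-receptor Lrp6 had 0.39 and 0.62, or 0.15 and 0.22 after subtraction, and Lrp5 had 0.54 against unaffected offspring, or 0.34. The nuclear mediators Lef1 and Tcf7l1 had 0.47 each against control, or 0.43 and 0.45 after subtraction. Of 20 counted genes, 5 were past the higher and 2 past the lower limit in affected against control, and 7 and 1 in affected against unaffected offspring, beside 12.6% higher and 11.5% lower, and 20.7% higher and 18.5% lower, of all loci. After subtraction for length the counts were 4 and 1, and 5 and 2, where the higher shares of all loci were 3.94% and 8.61% and the lower counts 795 and 1226 of 12474. Centring on Gapdh and Ywhaz left 2 higher and 2 lower against control, where 1051 of 15455 loci were higher and 3081 lower. Progenitors and neurons express many of these genes, so their levels are not endothelial alone.

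Genes of arterial and venous identity and Notch signalling were 13 in number, with 3 past the higher and 1 past the lower limit in affected against control, and 4 and 1 in affected against unaffected offspring. The shares of all loci on the higher side were 12.6% and 20.7%, and on the lower side 11.5% and 18.5%. With length subtracted the counts were 1 higher and 2 lower, and 2 higher and 1 lower. Of all loci, 3.94% and 8.61% were then higher, and 795 and 1226 of 12474 lower. Centred on Gapdh and Ywhaz the counts were 2 higher and 3 lower, and 3 higher and 2 lower, where 1051 of 15455 loci were higher and 3081 lower against control. Notch1 stood at 5.43 FPKM in control, 4.87 FPKM in unaffected and 8.01 FPKM in affected offspring, and Unc5b, a netrin receptor of arterial cells, at 2.27 FPKM, 2.29 FPKM and 3.22 FPKM. Nr2f2, a venous and also neural transcription factor gene, had 0.34 and 0.48. Relative to loci of like length, Notch1 was at 0.32 and 0.31, Unc5b at 0.34 and 0.27, and Nr2f2 at 0.25 and 0.39. The arterial Notch target Hey2 went the other way, with 2.86 FPKM, 3.08 FPKM and 1.68 FPKM, and kept -0.73 and -0.79 after subtraction for length.

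Pericytes wrap the capillaries, and their list of 14 counted genes was split. Pdgfrb, the receptor that recruits them, stood at 4.19 FPKM in control, 4.02 FPKM in unaffected and 5.75 FPKM in affected offspring. Its log2 fold change was 0.46 and 0.52, or 0.31 and 0.32 after subtraction for length. Notch3 had 0.50 against control and 0.66 against unaffected offspring, or 0.28 and 0.31 after subtraction. The proteoglycan gene Cspg4 had 0.48 and 0.83, or 0.26 and 0.46 after subtraction, but its mean without the affected group was 0.954 FPKM, so it too is counted only through the group where it is high. Higd1b, a short transcript of 735 nt found in brain pericytes, had -0.81 and -0.83, and -0.49 and -0.37 after subtraction for length. Kcnj8 had -0.38 and -0.51, or -0.34 and -0.43 after subtraction. Rgs5 stood at 30.9 FPKM, 32.6 FPKM and 27.1 FPKM, and was at -0.26 and -0.38 after subtraction. In all, 4 genes were past the higher and 2 past the lower limit against control, and 5 and 2 against unaffected offspring. On the lower side, 11.5% and 18.5% of all loci were past the limit. After subtraction for length these were 1 and 2, and 4 and 3, where 12.6% and 20.7% of all loci were past the higher limit before it and 3.94% and 8.61% after it. The lower counts over all loci after it were 795 and 1226 of 12474. The 1 higher gene against control after subtraction was Ndufa4l2, at 0.39. The summed FPKM of the 14 genes was 102, 104 and 97.6 in control, unaffected and affected offspring.

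Hypoxia induces Vegfa and Slc2a1. Of 18 counted genes known to respond to it, 6 lay above 0 in affected against control and 7 in affected against unaffected offspring, with medians of -0.09 and -0.13. Against control, 1 was past the higher and 3 past the lower limit, and against unaffected offspring 2 and 7, beside 11.5% and 18.5% of all loci on the lower side. After subtraction for length these were 1 and 2, and 3 and 4. Of all loci, 3.94% and 8.61% were then past the higher limit, and 795 and 1226 of 12474 past the lower limit. Ankrd37 had log2 fold changes of -0.77 and -0.99, Higd1a -0.38 and -0.54, and the mitophagy gene Bnip3 -0.37 and -0.50. After subtraction for length these were -0.49 and -0.57 (Ankrd37), -0.32 and -0.42 (Higd1a), and -0.24 and -0.29 (Bnip3). The glycolytic gene Hk2, with a long transcript, was at 0.47 and 0.52, and 0.32 and 0.33 after subtraction.

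Markers of other cells in the tissue also differed in level between groups, and their part in the members' values was not tested. No locus of these lists was listed at 0 in any group. Blood cell RNA stood apart by group: 7 counted erythroid loci summed to 5815 FPKM in control, 7525 FPKM in unaffected and 3653 FPKM in affected offspring, with 7 past the higher limit in unaffected against control, beside 5.53% of all loci, and 6 past the lower limit in affected against unaffected offspring, beside 18.5%, or 4 and 3 after subtraction. The joined beta-globin locus made up most of these sums, with 5357 FPKM in control, and in affected against control the list went both ways, with 2 higher (Hbb-y at 1.42 and Hba-x at 0.78), 1 lower (the beta-globin locus at -0.71) and a median of -0.09. The 13 microglial and macrophage genes, which share Pecam1 expression with endothelium, summed to 106 FPKM, 112 FPKM and 91.7 FPKM, with 0 higher and 3 lower in affected against control, beside 11.5% of all loci on the lower side, and 0 lower after subtraction for length. Against unaffected offspring 1 was higher and 6 lower, beside 20.7% and 18.5% of all loci. The median there was -0.28, or -0.05 after subtraction. Of the platelet list, 2 loci were counted, of which Pf4 had -0.40 against control and -0.60 against unaffected offspring, or -0.06 and -0.12 after subtraction, and the joined locus Gp1bb,Sept5 had 0.01 and 0.02. The meningeal list of 12 genes summed to 213 FPKM, 201 FPKM and 201 FPKM. Against control 0 were higher and 3 lower (Dcn at -0.52, Slc6a13 at -0.44 and Aldh1a2 at -0.32), beside 12.6% and 11.5% of all loci. Against unaffected offspring 1 was higher and 3 lower, beside 20.7% and 18.5%. After subtraction for length, Dcn and Slc6a13 were at -0.39 and -0.38 against control, and at -0.13 and -0.24 against unaffected offspring. The choroid plexus list of 8 counted genes summed to 1001 FPKM, 1327 FPKM and 1119 FPKM. Ttr alone made up 970.2 FPKM of the control sum, and 3 genes of that list were past the higher limit in affected offspring against both other groups, namely Krt8 (1.12 against control), Krt18 (1.12) and Clic6 (0.89), beside 12.6% and 20.7% of all loci. The 10 cortical neuron genes summed to 2736 FPKM, 2609 FPKM and 2867 FPKM, with 5 past the higher limit against control, beside 12.6% of all loci, and 8 against unaffected offspring, beside 20.7%, or 1 and 6 after subtraction for length. The 10 cortical progenitor genes summed to 2530 FPKM, 2689 FPKM and 1933 FPKM, with 3 higher and 2 lower against control, beside 12.6% and 11.5% of all loci, and 1 higher and 3 lower against unaffected offspring, beside 20.7% and 18.5%. Fabp7 made up most of that sum, with 2015 FPKM, 2151 FPKM and 1352 FPKM, whereas 7 of the 10 genes lay above 0 against control, with a median of 0.16. For the progenitor genes, subtraction for length gave 2 higher (Hes1 and Vim) and 1 lower (Slc1a3) in affected against control. In affected against unaffected offspring it gave 2 higher (Sox2 and Vim) and 1 lower (Slc1a3), whereas Nes, the 1 higher before, was then inside the limit.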

How the data were processed

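RNA from fetal brain was prepared with TruSeq chemistry and sequenced as paired 50-bp reads. The methods name STAR and also Bowtie with TopHat, the labels list Bowtie2 2.2.4.0, Cufflinks and Cuffdiff, and the build was mm10. The authors deposited FPKM from Cuffdiff, 1 value per group over 3 libraries. Fragment counts per library were not used here, so no interval is given. The columns of the authors' own comparisons (log2 fold change, test statistic, p-value, q-value) were not used. Of 27095 loci, 3871 carry no gene name. The number of unused columns with values of other samples was 0.

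Ratios and log2 ratios of the deposited FPKM were taken without a pseudocount, for loci with a mean FPKM of at least 1, and a ratio of at least 1.25 or its inverse was past the limit. The running median over transcript length used 501 loci and covered 80.7% of counted loci. Lengths came from GENCODE M21 by symbol, or through an unambiguous RefSeq synonym. The steps were tested on simulated data and run in Python 3.11.15 with pandas 2.3.3, numpy 2.4.6 and matplotlib 3.10.9. Start positions in the table count from 0 and are given here from 1.

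The members and the 16 gene lists were chosen with earlier results of these data known, and no list is independent support. The genes named are all members, up to 4 genes per list and comparison past the limit with the largest log2 fold change, and Vegfa, Angpt1, Angpt2, Cdh5, Wnt7a, Wnt7b and Pdgfrb. Abcb1b, Egfl7, Icam2, Ecscr, Ly6c1 and Clec14a were added after their values were seen. So were Eng, Sox7, Sox18, Nos3, Cldn3, Cldn12, Abcg2, Tfrc, Ndp, Kcnj8, Rgs5, Ndufa4l2, Sox2 and Vim. For microglia, meninges, choroid plexus, neurons, progenitors and blood cells, sums and counts are given in place of most single genes. Some genes that the rule names are not reported here. The labels do not say whether fetuses of a group came from different litters. Alternatives were another fold limit, no filter, 2 pseudocounts, 3 ways of centring and a second measure of length.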

Additional observations from a re-analysis of the deposited data

How the results depend on the processing

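No paired analysis was possible because the table has 1 value per group, and leaving out a replicate was not possible for the same reason. The number of animals and the lack of values per animal limit every comparison. Pseudocounts of 0.1 and 1 and centring on the median of all loci moved the median of all loci by 0.02 or less on the log2 scale, whereas centring on Gapdh and Ywhaz moved it by -0.10 in affected against control, -0.07 in affected against unaffected and -0.03 in unaffected against control. Of 30 log2 fold changes of members, a shift of at least 0.1 occurred in 15 after centring on transcript length, 12 with median transcript length, 10 with centring on Gapdh and Ywhaz and 4 with a pseudocount of 1. Over the alternatives small values changed sign 18 times, all of them between -0.18 and 0.07 before.

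The cause of the shifts in counts below was not tested. With a fold limit of 1.5, the members past the higher limit came to 0 against control (2 before) and 0 against unaffected offspring (4 before). Against control they came to 1 with a pseudocount of 1, 1 after centring on length and 1 after centring on Gapdh and Ywhaz, and against unaffected offspring to 2 after centring on length. Median transcript length gave 1 and 2. It was added after the data were seen, as were both centrings where applied to counts. The other endothelial genes in place of the members gave medians of 0.14 and -0.041 in place of 0.26 and 0.25.

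Among other endothelial genes, the limit of 1.5 gave 0 higher and 0 lower in unaffected against control (1 and 1 before), 2 higher in affected against control (5 before), and 3 higher and 0 lower in affected against unaffected offspring (8 and 4 before). Without a filter, 3 were higher in unaffected against control. A pseudocount of 1 gave 0 higher and 0 lower in unaffected against control, 3 higher against control and 5 higher against unaffected offspring. Centring on length gave 2 higher and 0 lower in unaffected against control and 1 lower in affected against unaffected offspring, and with median lengths 2 higher, 3 higher (affected against control) and 1 lower in the same order of comparisons. Affected against control, 1 was lower after centring on the median of all loci, and 2 were higher and 2 lower after centring on Gapdh and Ywhaz.

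Over all loci, the higher and lower counts were 855 and 1081 (unaffected against control), 1943 and 1775 (affected against control) and 3201 and 2854 (affected against unaffected). In the same order, the limit of 1.5 gave 379 and 468, 537 and 479, and 1111 and 788. No filter gave 2375 and 2597, 3666 and 3754, and 5011 and 4831. Centring on length gave 200 and 183, 491 and 795, and 1074 and 1226, and with median lengths 226 and 256, 930 and 1059, and 1900 and 1670. A pseudocount of 1 gave 536 and 647 in unaffected against control and 1284 higher in affected against control. Centring on Gapdh and Ywhaz gave 1051 and 3081 in affected against control.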
